A study of Mus musculus with 8 samples.

Results

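The genes of mitochondrial dynamics and mitophagy were examined here in brown adipose tissue (BAT) of mice that lack the lipase ATGL in brown adipocytes. The 10 genes were chosen by name as rows of the deposited count table: 4 of mitochondrial fusion and Opa1 processing (Mfn1, Mfn2, Opa1 and Oma1), 3 of fission (Dnm1l, Mff and Fis1) and 3 of mitophagy (Pink1, Bnip3 and Fundc1). They were 10 of 31053 genes in the table, and all 10 passed the filter on low counts that left 8930 genes to test. Bulk RNA-seq had been run on 4 WT and 4 Ucp1Δ/Δ mice, each mouse a library of its own. In Ucp1Δ/Δ mice, labelled ATGLKO, floxed alleles of Pnpla2, the gene encoding ATGL, were removed with a Cre transgene under Ucp1 control, so that cells which do not express Ucp1 keep the gene. The WT group carried the label WT, and whether these mice bore floxed alleles or the Cre was not given in the sources used here. Both groups were C57BL6/J, 10 weeks old by the labels (the study's legend gives a younger age), and by the study's methods male and on normal diet. The methods mention a fast before tissue was taken beside other mice of the study, and whether it applied to these mice was not given. The labels name both BAT and its stromal vascular fraction, the non-adipocyte cells left after digestion, so the tissue was checked against cell type markers below.

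Mitochondria form a network that is remodelled by fusion and fission. The mitofusins Mfn1 and Mfn2 are GTPases that join outer membranes, Opa1 joins inner membranes and keeps cristae in shape, and the stress-activated protease Oma1 cleaves Opa1. Fission is carried out by the GTPase Drp1, encoded by Dnm1l, which is recruited to the outer membrane by adaptors such as Mff and Fis1. In mitophagy, damaged mitochondria are handed to autophagosomes, either through the kinase Pink1, which builds up on damaged organelles and activates Parkin, or through outer-membrane receptors such as Bnip3 and Fundc1, which bind autophagosome proteins directly. Brown adipocytes are rich in mitochondria, and their network is known to fragment when thermogenesis is switched on.

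The sequences just upstream of 4 of the genes are shown because 3 of these genes (Mfn1, Dnm1l and Bnip3) were lower in Ucp1Δ/Δ mice and the fourth, Mfn2, is the paralog of Mfn1 that was not. Each is the 250 bases before the RefSeq start on GRCm38.p6, written 5′ to 3′ on the strand of the gene, and where RefSeq gave several starts the one nearest to the GENCODE gene start was used. Capitals mark any match to one of 6 motifs searched on both strands.
Mfn1 (chr3:32529232-32529481, plus strand): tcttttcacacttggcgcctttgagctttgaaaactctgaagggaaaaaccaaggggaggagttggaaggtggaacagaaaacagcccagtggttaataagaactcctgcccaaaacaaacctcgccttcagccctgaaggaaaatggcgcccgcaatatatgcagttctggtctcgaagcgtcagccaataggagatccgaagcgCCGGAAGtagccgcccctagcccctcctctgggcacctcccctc
Mfn2 (chr4:147904699-147904948, minus strand): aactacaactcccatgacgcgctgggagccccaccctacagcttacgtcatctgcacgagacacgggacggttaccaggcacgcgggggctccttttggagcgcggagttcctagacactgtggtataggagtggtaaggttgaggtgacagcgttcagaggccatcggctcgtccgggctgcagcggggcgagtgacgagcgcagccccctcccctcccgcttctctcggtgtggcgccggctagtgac
Dnm1l (chr16:16359032-16359281, minus strand): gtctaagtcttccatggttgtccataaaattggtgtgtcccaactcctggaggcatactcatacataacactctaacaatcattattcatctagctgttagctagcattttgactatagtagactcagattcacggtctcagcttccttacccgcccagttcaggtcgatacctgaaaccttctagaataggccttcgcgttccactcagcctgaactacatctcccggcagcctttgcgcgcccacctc
Bnip3 (chr7:138909507-138909756, minus strand): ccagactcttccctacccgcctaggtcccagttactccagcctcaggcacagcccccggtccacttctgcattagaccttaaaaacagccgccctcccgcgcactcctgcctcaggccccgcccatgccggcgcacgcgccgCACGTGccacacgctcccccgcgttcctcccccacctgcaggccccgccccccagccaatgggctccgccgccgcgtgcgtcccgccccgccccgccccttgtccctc
The Mfn1 window held 1 ETS site (CCGGAAG), which was present in 6.91% of 32851 promoters of the same length, and the Mfn2 and Dnm1l windows held none of the 6 motifs. The Bnip3 window held 1 E-box (CACGTG), found in 6.02% of promoters. This palindrome also holds ACGTG, the only form of the hypoxia response core searched, on both strands, and 16.6% of promoters contained it. Bnip3 is a well-known target of the hypoxia-inducible factors. Among the other genes, Fis1 had 1 ETS site and Opa1 had the NRF1 core GCGCATGCG at 2 overlapping positions, a motif present in 1.45% of promoters. The cAMP response element TGACGTCA (1.55% of promoters) and the estrogen-related receptor site AAGGTCA (4.08% of promoters) matched in none of the 10 windows. The Fundc1 window precedes a RefSeq start 318 bases from the GENCODE start and lies inside the GENCODE gene. The sequence upstream of the GENCODE start of Fundc1 was therefore not searched. A match of letters is a description and does not show that a factor binds there.

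Pnpla2 was examined first, as a check of the labels. Its expression level, given as CPM (the count scaled by library size), was 2837, 2702, 2961 and 3152 CPM in WT mice 1 to 4 and 514, 448, 403 and 531 CPM in Ucp1Δ/Δ mice 1 to 4. The genotypes did not overlap, and the Ucp1Δ/Δ mean of 474 ± 59.2 CPM was 16.3% of the WT mean of 2913 ± 191 CPM (SD, n = 4 each). The log2 fold change (log2FC) was -2.62 (SE 0.17), with a Benjamini-Hochberg adjusted p of 1.97e-07 from edgeR's quasi-likelihood test, the test behind every edgeR value here. Libraries held 2017697 to 3115956 counts, of which the 10 genes took 0.103% to 0.151% and the mitochondrially encoded mt-Nd4 took 21.6% to 26.6%. The adipocyte markers Cidea and Adipoq, which the stromal vascular fraction should lack, stood at 1841 to 7455 CPM and 574 to 1416 CPM over the 8 mice, which goes against that label.

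Of the 10 genes, 3 were lower in Ucp1Δ/Δ mice at an adjusted p under 0.05 and 7 did not pass. The 3 lower genes came 1 from each arm: Mfn1 of fusion, Dnm1l of fission and Bnip3 of mitophagy, and they stood at 58.2% to 65.5% of the WT mean. None of the 10 was called higher by edgeR, DESeq2, limma voom or limma trend, and the 5 genes with an unadjusted p under 0.05 in edgeR were all lower. Over all 8930 genes tested, 21.0% were called, 7.63% lower and 13.3% higher. The median log2FC of the 10 genes was -0.22, beside -0.0087 over all genes tested. With 10 genes, a share of 3 lower rests on few members. The edgeR p-values set the genotype difference against the spread between the 4 mice of each genotype, a spread estimated with information shared across genes.

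**Figure D1:**
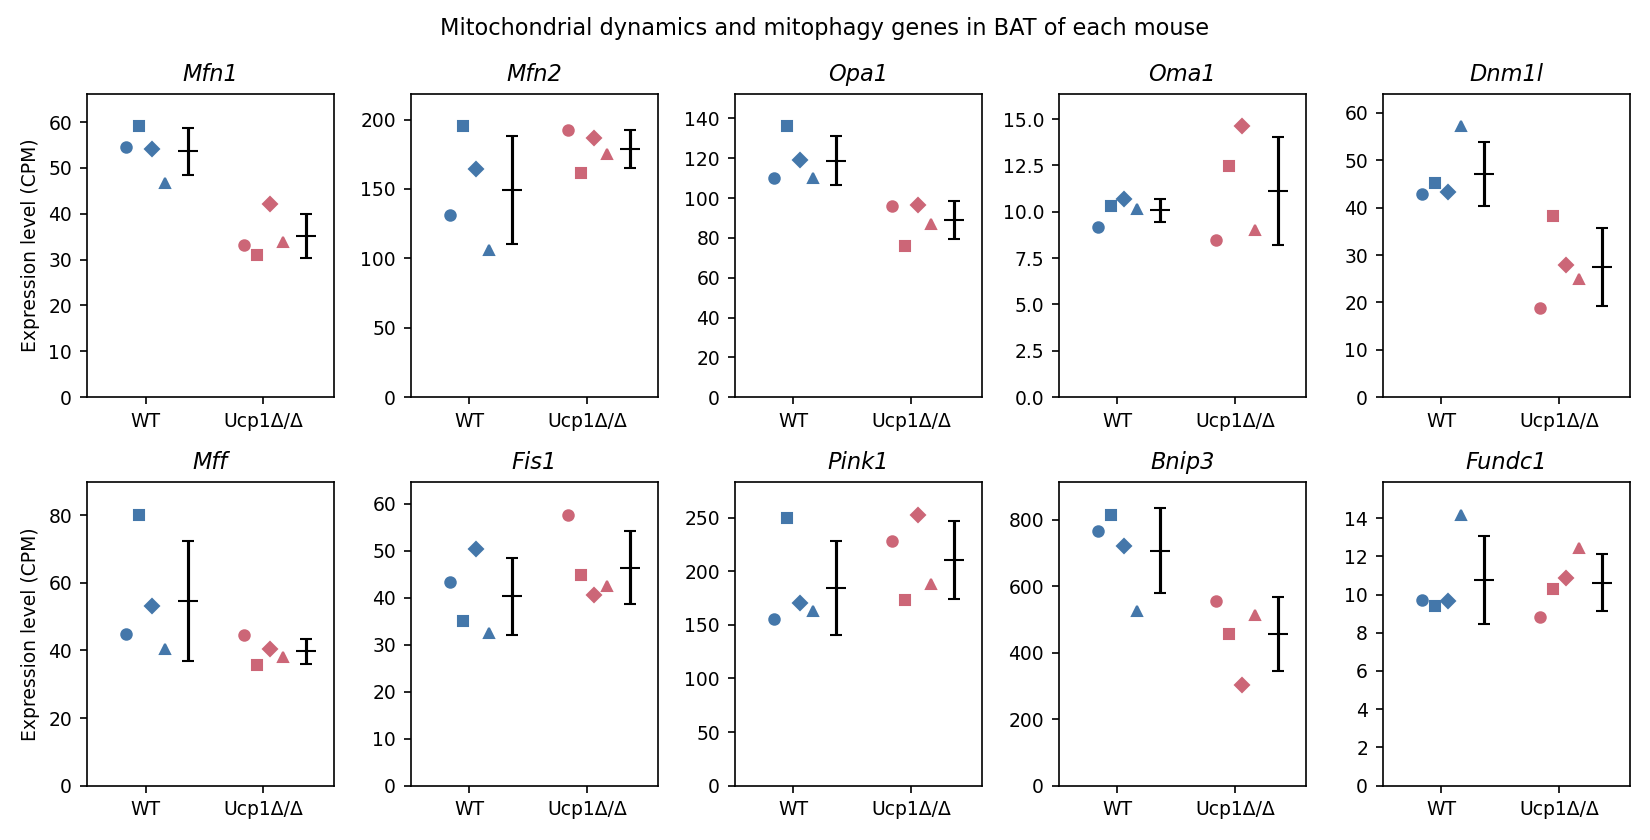
Expression level (CPM, linear axis from 0) of the 10 genes in each mouse, WT in blue and Ucp1Δ/Δ in red, with replicates 1 to 4 as circle, square, diamond and triangle. The bar beside each group is its mean ± SD (n = 4), and the groups do not overlap for Mfn1, Opa1 and Dnm1l.

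Among the fusion genes, Mfn1 (ENSMUSG00000027668, protein coding, chromosome 3, bases 32529465 to 32579239 of mm10) fell. Its level was 54.6, 59.1, 54.1 and 46.6 CPM in WT mice 1 to 4 and 33.3, 31.1, 42.2 and 33.9 CPM in Ucp1Δ/Δ mice 1 to 4. The lowest WT mouse lay above the highest Ucp1Δ/Δ mouse. The mean went from 53.6 ± 5.19 CPM to 35.1 ± 4.87 CPM (SD, n = 4 each), with a log2FC of -0.61 (SE 0.17, 95% interval -0.98 to -0.25) and an adjusted p of 0.0175 by edgeR's quasi-likelihood test. The two-sided exact permutation test on log2 CPM gave p = 0.0286, the smallest that 4 mice against 4 allow, and 9.37% of all genes tested had groups that did not overlap in this direction. The call was lost without Ucp1Δ/Δ mouse 2 (log2FC -0.55, edgeR adjusted p = 0.0653) and with scaling by total counts alone (log2FC -0.47, edgeR adjusted p = 0.0612).

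Mfn2 (ENSMUSG00000029020, chromosome 4, bases 147873599 to 147904704), the other mitofusin, was not called. It stood at 131.6, 195.3, 164.3 and 105.9 CPM in WT mice and at 192.5, 161.8, 186.4 and 175.1 CPM in Ucp1Δ/Δ mice. The 4 Ucp1Δ/Δ mice lay within the range of the WT mice, whose SD of 38.9 CPM was the wider. The log2FC was 0.26 (95% interval -0.15 to 0.67, edgeR adjusted p = 0.379), so a decrease of the size seen for Mfn1 lay outside the interval. Compared within each mouse, log2 CPM of Mfn2 minus that of Mfn1 was 1.26, 1.71, 1.59 and 1.17 in WT mice and 2.50, 2.35, 2.12 and 2.34 in Ucp1Δ/Δ mice. The mean difference thus moved from 1.43 ± 0.26 to 2.33 ± 0.16 (SD, n = 4 each), with no overlap between genotypes, a change of 0.90 given as a description with no test. This value also carries the length and capture of each transcript, so only its change between genotypes can be read, not which mitofusin is the more abundant.

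Opa1 (ENSMUSG00000038084, chromosome 16, bases 29579334 to 29654884) was at 110.1, 136.2, 118.9 and 109.9 CPM in WT mice and at 96.2, 75.9, 96.5 and 87.1 CPM in Ucp1Δ/Δ mice. All 4 Ucp1Δ/Δ mice were below all 4 WT mice, as in 9.37% of all genes tested. Such separation fixes the two-sided exact permutation test at p = 0.0286, so that value adds nothing to it. The mean was 119 ± 12.3 CPM in WT and 89.0 ± 9.72 CPM in Ucp1Δ/Δ mice. The log2FC of -0.42 (SE 0.16, 95% interval -0.76 to -0.073) did not pass in edgeR's quasi-likelihood test (adjusted p = 0.0820). It passed in DESeq2's Wald test, with a log2FC of -0.46 and an adjusted p of 0.0273, and in the edgeR fit at a threshold of 0.1 in place of 0.05, and in no other alternative run. Oma1 (ENSMUSG00000035069, chromosome 4, bases 103313812 to 103371868), which cleaves Opa1, had 8.49 to 14.6 CPM in the 8 mice and a log2FC of 0.14 (95% interval -0.39 to 0.67, edgeR adjusted p = 0.749). At 18 to 40 counts per mouse, counting error alone gave Oma1 a coefficient of variation near 21.2% in WT mice, and a change as large as that of Mfn1 in the upward direction would fall inside its interval. Oma1 minus Opa1 within a mouse was -3.46 ± 0.13 in WT and -2.93 ± 0.40 in Ucp1Δ/Δ mice on the log2 scale, and the groups overlapped.

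Dnm1l (ENSMUSG00000022789, chromosome 16, bases 16312230 to 16358959), encoding the fission GTPase Drp1, fell the furthest of the 10 genes by estimate. It was at 42.8, 45.2, 43.4 and 57.2 CPM in WT mice and at 18.8, 38.3, 28.0 and 24.9 CPM in Ucp1Δ/Δ mice. The groups did not overlap, although Ucp1Δ/Δ mouse 2 came close to the lowest WT mouse. The mean went from 47.2 ± 6.78 CPM to 27.5 ± 8.16 CPM (SD, n = 4 each), with a log2FC of -0.77 (SE 0.22, 95% interval -1.23 to -0.31) and an edgeR adjusted p of 0.0182. The two-sided exact permutation test gave p = 0.0286, as it must where groups do not overlap. In this direction, the groups of 9.37% of all genes tested did not overlap. The call was lost without Ucp1Δ/Δ mouse 1 (log2FC -0.62, edgeR adjusted p = 0.0656), without Ucp1Δ/Δ mouse 4 (log2FC -0.73, edgeR adjusted p = 0.0586) and with total-count scaling (log2FC -0.62, edgeR adjusted p = 0.0652).

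The receptors that bring Drp1 to mitochondria did not pass. Mff (ENSMUSG00000026150, chromosome 1, bases 82724890 to 82752394) was at 44.9, 80.2, 53.1 and 40.5 CPM in WT mice and at 44.6, 35.8, 40.5 and 38.2 CPM in Ucp1Δ/Δ mice. WT mouse 2 stood well above the rest, and the groups overlapped. The log2FC of Mff was -0.46 (SE 0.21, 95% interval -0.91 to -0.015), with an unadjusted p of 0.0438 and an adjusted p of 0.139 in edgeR, and without WT mouse 2 it was -0.23. Fis1 (ENSMUSG00000019054, chromosome 5, bases 136953275 to 136966234) was at 43.3, 34.9, 50.4 and 32.4 CPM in WT mice and at 57.7, 44.8, 40.5 and 42.5 CPM in Ucp1Δ/Δ mice. Its groups overlapped, with a log2FC of 0.20 (95% interval -0.21 to 0.61, edgeR adjusted p = 0.519). The difference Dnm1l minus Mff within a mouse was -0.17 ± 0.54 in WT and -0.56 ± 0.54 in Ucp1Δ/Δ mice on the log2 scale, with overlap.

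Of the mitophagy genes, Bnip3 (ENSMUSG00000078566, chromosome 7, bases 138890836 to 138909519) fell. It was at 767, 816, 721 and 525 CPM in WT mice and at 557, 457, 302 and 512 CPM in Ucp1Δ/Δ mice. Of the 4 Ucp1Δ/Δ mice, 3 lay below every WT mouse, while Ucp1Δ/Δ mouse 1 lay above WT mouse 4. The mean went from 707 ± 128 CPM to 457 ± 111 CPM (SD, n = 4 each), with a log2FC of -0.63 (SE 0.20, 95% interval -1.07 to -0.19) and an edgeR adjusted p of 0.0399. The two-sided exact permutation test gave p = 0.0571. This call was the least stable of the 3: it held in 2 of the 8 fits that leave out 1 mouse, where the edgeR adjusted p ran from 0.0108 to 0.125. It was also lost with total-count scaling (log2FC -0.49, edgeR adjusted p = 0.102) and with a filter of at least 10 counts per mouse (log2FC -0.56, edgeR adjusted p = 0.0699). Bnip3 minus its paralog Bnip3l, which encodes the receptor NIX, was 3.57 ± 0.23 in WT and 3.16 ± 0.45 in Ucp1Δ/Δ mice on the log2 scale, and the groups overlapped.

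Pink1 (ENSMUSG00000028756, chromosome 4, bases 138313409 to 138326307) was at 155.5, 249.99, 169.97 and 162.6 CPM in WT mice and at 228.2, 172.7, 252.8 and 188 CPM in Ucp1Δ/Δ mice. The highest mouse of each genotype was at nearly the same level, and the log2FC was 0.19 (95% interval -0.22 to 0.60, edgeR adjusted p = 0.548). Fundc1 (ENSMUSG00000025040, chromosome X, bases 17556564 to 17572325) was at 9.69, 9.41, 9.68 and 14.2 CPM in WT mice and at 8.84, 10.3, 10.9 and 12.4 CPM in Ucp1Δ/Δ mice. WT mouse 4 was the highest of the 8 and the other 3 WT mice lay within the Ucp1Δ/Δ range, and the log2FC of -0.015 (95% interval -0.54 to 0.51, edgeR adjusted p = 0.977) changed sign with the scaling. Fundc1 rested on 19 to 33 counts per mouse, and a change within that interval cannot be told from none here. Pink1 minus Fundc1 was 4.00 ± 0.48 in WT and 4.20 ± 0.36 in Ucp1Δ/Δ mice on the log2 scale, with overlap.

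**Figure D2:**
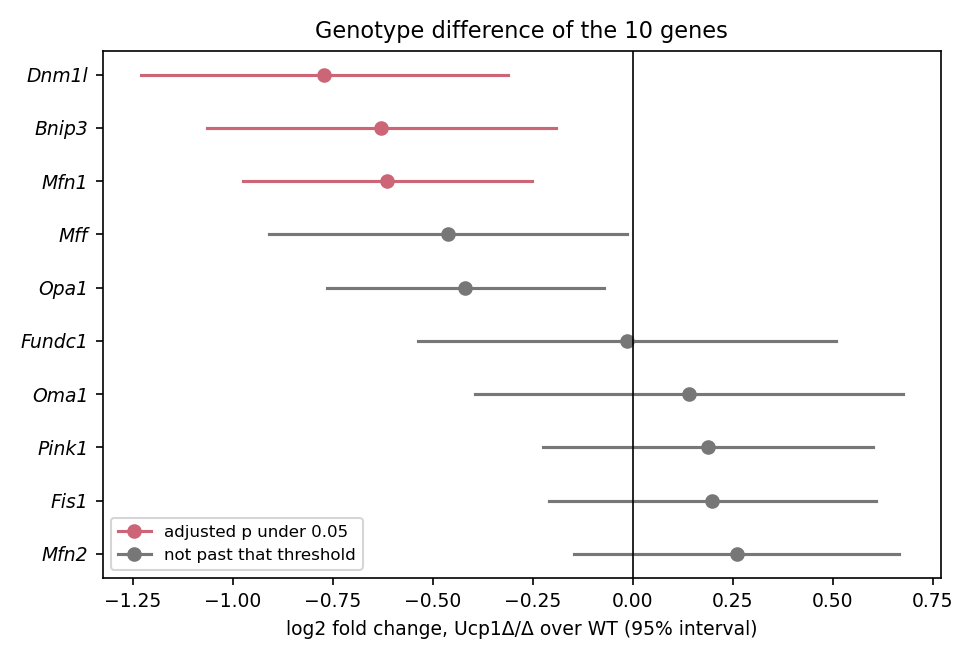
The log2 fold change of each of the 10 genes, Ucp1Δ/Δ over WT, with its 95% interval from edgeR's quasi-likelihood fit. The intervals of Dnm1l, Bnip3 and Mfn1 (red, adjusted p under 0.05) lie below 0, those of Mff and Opa1 end just below 0 without passing the adjusted threshold, and the other 5 span 0.

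**Figure D3:**
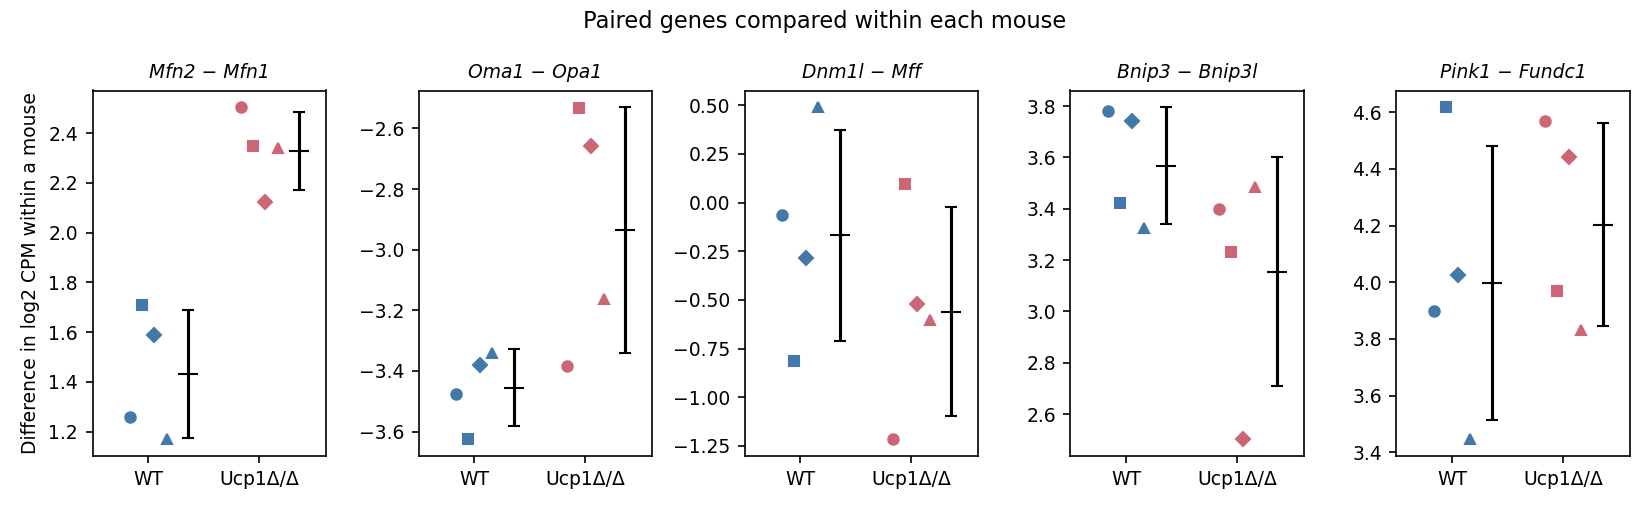
Difference in log2 CPM between paired genes within each mouse, with mean ± SD (n = 4) beside each group; symbols are as in the plot of levels by mouse, and the axes do not start at 0. The genotypes separate for Mfn2 minus Mfn1, from 1.17 to 1.71 in WT and from 2.12 to 2.50 in Ucp1Δ/Δ mice, and overlap for the other pairs.

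The highest and lowest mouse of a genotype differed from gene to gene. Among WT mice, mouse 2 was highest for 6 of the 10 genes (Mfn1, Mfn2, Opa1, Mff, Pink1 and Bnip3) and lowest for Fundc1, whereas mouse 4 was lowest for 6 (Mfn1, Mfn2, Opa1, Fis1, Mff and Bnip3) and highest for Dnm1l and Fundc1. Among Ucp1Δ/Δ mice, mouse 1 was highest for 4 and lowest for 3, mouse 3 highest for 4 and lowest for 2, and mouse 2 lowest for 5 (Mfn1, Mfn2, Opa1, Mff and Pink1) and highest for Dnm1l. The sum of 12 brown adipocyte markers was 18155, 24613, 21082 and 14517 CPM in WT mice 1 to 4 and 15737, 10717, 12845 and 11936 CPM in Ucp1Δ/Δ mice 1 to 4. The summed level of the 10 genes ran in the same order in WT mice, at 1369, 1637, 1396 and 1104 CPM, but not in Ucp1Δ/Δ mice, at 1245, 1041, 1015 and 1124 CPM. Bnip3 was the largest part of these sums, with a mean of 707 CPM in WT and 457 CPM in Ucp1Δ/Δ mice. The part of the brown adipocyte markers in the levels of the 10 genes was not tested. Over the 8 mice, the 3 genes whose log2 CPM was most like that of Mfn1, among 6428 genes with a mean of at least 10 CPM, were Mrpl35 (a mitochondrial ribosome protein, Pearson r = 0.994), Tmem14c (a mitochondrial membrane protein of heme synthesis, r = 0.990) and Pdk1 (a kinase that inhibits pyruvate dehydrogenase, r = 0.985). These correlations join the genotype difference and the spread between mice, and they are the highest of many, so they are a description only. All 3 genes fell in Ucp1Δ/Δ mice, with log2FC of -0.74, -0.67 and -1.17. Their choice by likeness to Mfn1 made a fall all but certain, so it is no further result.

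Other genes of the same processes were described from lists written by role. Of 22 further genes of fusion, Opa1 processing and cristae, 20 were tested, 3 fell and 1 rose, and the median log2FC was -0.32. The share called, 20%, was near the 21.0% of all genes tested. Miga2, an outer-membrane protein that promotes fusion, went from 69.6 ± 10.9 to 38.7 ± 5.34 CPM (log2FC -0.85, edgeR adjusted p = 0.00263). Phb2, a prohibitin of the inner membrane, went from 173 ± 16.2 to 111 ± 13.4 CPM (log2FC -0.64, edgeR adjusted p = 0.0103), and Chchd3, a subunit of the cristae-organising MICOS complex, from 218 ± 14.4 to 145 ± 16.5 CPM (log2FC -0.59, edgeR adjusted p = 0.0136). Afg3l1, a subunit of the m-AAA protease, rose from 43.3 ± 5.51 to 65.1 ± 10.5 CPM (log2FC 0.59, edgeR adjusted p = 0.0280). With each mouse left out in turn, Miga2 and Phb2 were called in all 8 fits, Chchd3 lost its call without Ucp1Δ/Δ mouse 2, and Afg3l1 held its call in 3 of the 8.

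Of 17 further genes of fission and mitochondrial motility, 14 were tested, 5 fell and 1 rose, and the median log2FC was -0.24. The share called was 42.9%, beside 21.0% of all genes tested, and rests on few genes. Mtfp1, an inner-membrane protein of fission, went from 29.3 ± 9.32 to 13.2 ± 3.88 CPM (log2FC -1.16, edgeR adjusted p = 0.00495). Marchf5, an outer-membrane ubiquitin ligase whose substrates include Drp1 and the mitofusins, went from 149 ± 27.7 to 83.8 ± 8.36 CPM (log2FC -0.83, edgeR adjusted p = 0.00316). Spire1, an actin nucleator, also fell (log2FC -0.73, edgeR adjusted p = 0.0428), as did Mtfr1l and Mtfr1 of the fission regulator family (log2FC -0.55 and -0.81, edgeR adjusted p = 0.0454 and 0.0466). Trak2, an adaptor that couples mitochondria to motor proteins and so belongs to motility rather than fission, rose from 15.6 ± 4.71 to 33.9 ± 5.84 CPM (log2FC 1.11, edgeR adjusted p = 0.00291). Mtfp1, Marchf5 and Trak2 kept their calls in each of the 8 fits that leave out 1 mouse. Spire1 was called in 2 of these fits (without WT mouse 3 or Ucp1Δ/Δ mouse 2), and Mtfr1 and Mtfr1l each in 2 (without WT mouse 4 or Ucp1Δ/Δ mouse 1). Spire1, Mtfr1 and Mtfr1l were not called with total-count scaling, nor Mtfr1 and Mtfr1l with the muscle markers described below as a covariate. Without WT mouse 2, the list had 3 lower and 3 higher calls, with Rhot2, Dnm2 and Inf2 (named after their values were seen) in place of those 3 genes.

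Of 31 further mitophagy receptors, adaptors and ubiquitin enzymes, 29 were tested, 1 fell and 2 rose, with a median log2FC of -0.11. The share called, 10.3%, was below the 21.0% of all genes tested. Ulk1, the kinase that starts autophagy, stood at 62.2, 57.3, 63.8 and 62.8 CPM in WT mice and at 36.4, 35.5, 35.1 and 31.8 CPM in Ucp1Δ/Δ mice. The groups were far apart relative to their spread, with a log2FC of -0.82 (SE 0.16, edgeR adjusted p = 0.00122). Gabarapl1, which belongs to the Atg8 family on the autophagosome membrane, rose from 237 ± 35.0 to 445 ± 81.4 CPM (log2FC 0.91, edgeR adjusted p = 0.00169). Pptc7, a phosphatase known to hold back mitophagy through Bnip3 and NIX, rose from 94.4 ± 14.4 to 138 ± 25.02 CPM (log2FC 0.55, edgeR adjusted p = 0.0432). Ulk1 and Gabarapl1 were called in all 8 fits that leave out 1 mouse, and Pptc7 in 2 of them, those without WT mouse 4 or Ucp1Δ/Δ mouse 1. Of 18 general mitochondrial proteins, taken for comparison, 2 fell, Clpp (a matrix protease, log2FC -0.71) and Vdac1 (an outer-membrane channel, log2FC -0.56), and the median log2FC of the 18 was -0.36. These calls were 11.1% of the general mitochondrial proteins, also below the share over all genes tested. Clpp lost its call without Ucp1Δ/Δ mouse 2 and Vdac1 without Ucp1Δ/Δ mouse 3. The median of the 10 dynamics and mitophagy genes, -0.22, lay between those of the mitophagy list and of the general mitochondrial proteins.

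**Figure D4:**
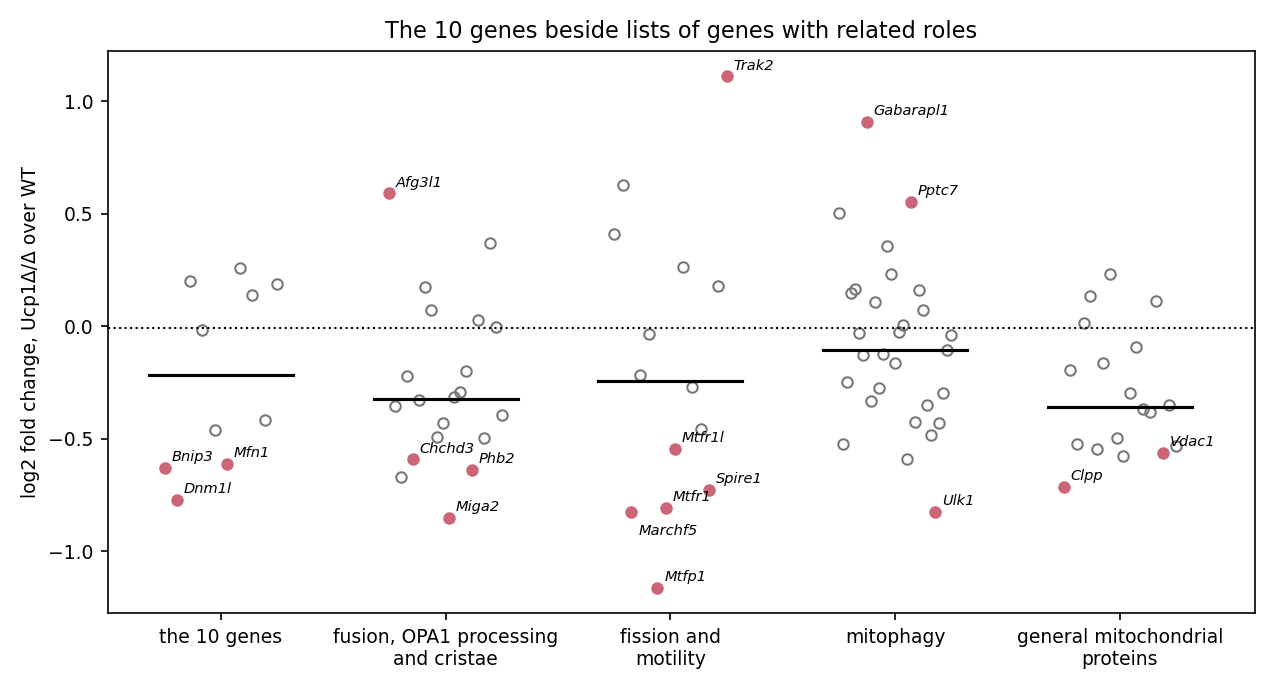
The log2 fold change, Ucp1Δ/Δ over WT, of every tested gene in the 10 genes and in the 4 lists of related roles, filled red and named where the adjusted p was under 0.05. The thick line is the median of each list, from -0.36 in the general mitochondrial proteins to -0.11 in mitophagy, and the dotted line the median of all 8930 genes tested, -0.0087.

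Cell type markers moved with genotype beside these results. The sum of 12 brown adipocyte markers overlapped, from 14517 to 24613 CPM in WT and from 10717 to 15737 CPM in Ucp1Δ/Δ mice, with 4 markers lower (Cidea, Adipoq, Plin1 and Elovl3) and 1 higher (Dio2). Of 12 macrophage markers, 11 were tested and all 11 were higher in Ucp1Δ/Δ mice, their sum going from 109 to 172 CPM in WT to between 1044 and 1759 CPM. Markers low in WT mice, such as Trem2, Adgre1, Cd68 and Tyrobp, passed the low-count filter through the Ucp1Δ/Δ mice, so a call could only be higher. Cd14, which the filter removed, overlapped, at 1.52 to 4.03 CPM in WT and 0.836 to 5.91 CPM in Ucp1Δ/Δ mice. Trem2, which the study names among the genes of lipid-associated macrophages, was at 0 in 3 of the 4 WT mice and Adgre1 at 0 in WT mouse 1. Other markers of the list were present in WT mice, such as Csf1r at 18.7 to 26.5 CPM. All 8 fibroblast markers were higher, with sums of 347 to 546 CPM in WT and 1101 to 2218 CPM in Ucp1Δ/Δ mice. Markers such as Lum, Fn1 and Pdgfra were also low in WT mice and passed the filter through the Ucp1Δ/Δ mice. The groups of Pdgfra overlapped, at 0 to 7.14 CPM in WT and 7.10 to 19.3 CPM in Ucp1Δ/Δ mice. In limma trend, 7 of the 8 fibroblast markers were called. Of 8 endothelial markers none was called by edgeR, with 2 at an unadjusted p under 0.05, and 1 was called by limma voom. Their sums were 256 to 311 CPM in WT and 305 to 367 CPM in Ucp1Δ/Δ mice. In bulk tissue, fewer cells of a type and less RNA per cell cannot be told apart, and the part of these markers in the differences of the 10 genes was not tested.

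Skeletal muscle markers varied within both genotypes. Their sum was 1962, 129, 27.7 and 936 CPM in WT mice 1 to 4 and 457, 2743, 91.5 and 1215 CPM in Ucp1Δ/Δ mice 1 to 4. Of 12 markers 10 were tested, and none was called by edgeR, DESeq2, limma voom or limma trend, and none had an unadjusted p under 0.05. With the summed muscle markers as a covariate, Mfn1, Dnm1l and Bnip3 were all still called. Without WT mouse 1 and Ucp1Δ/Δ mouse 2, the mouse of each genotype with the most muscle markers, Dnm1l was still called (log2FC -1.01, edgeR adjusted p = 0.0148), whereas Mfn1 (log2FC -0.54, edgeR adjusted p = 0.144) and Bnip3 (log2FC -0.57, edgeR adjusted p = 0.200) were not, in a fit with 3 mice per genotype.

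**Figure D5:**
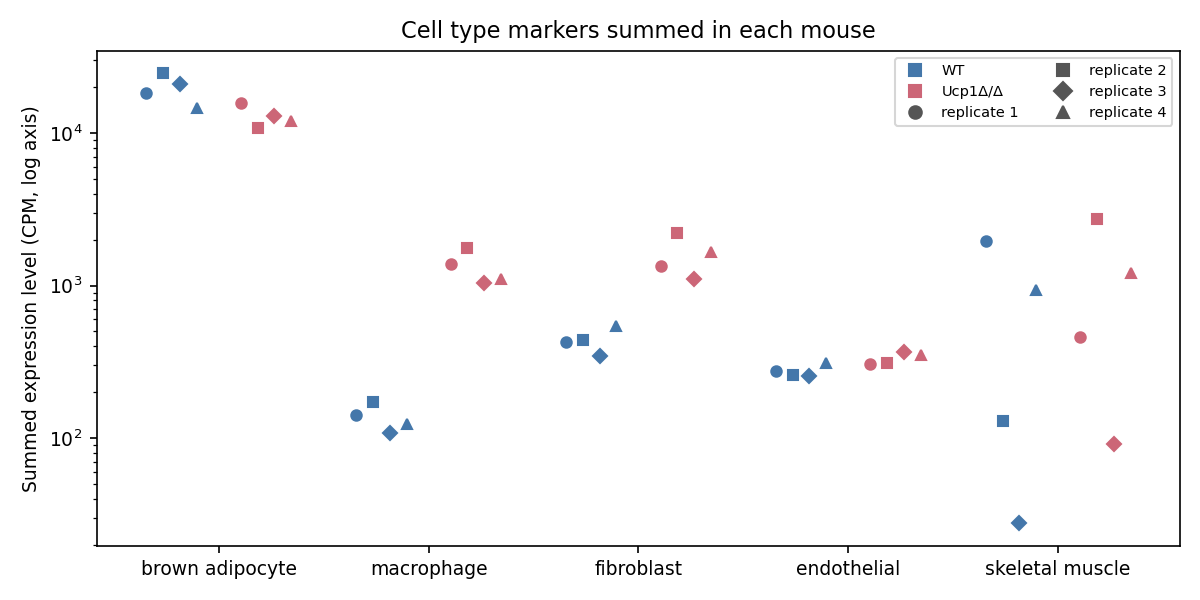
Summed expression level (CPM, log axis) of 5 lists of cell type markers in each mouse, WT in blue and Ucp1Δ/Δ in red, with replicates 1 to 4 as in the legend. The macrophage and fibroblast sums separate the genotypes, the brown adipocyte and endothelial sums overlap, and the skeletal muscle sums span 27.7 to 2743 CPM over the 8 mice.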

How the data were processed

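BAT of 4 WT and 4 Ucp1Δ/Δ mice was profiled by single-end digital mRNA-seq, grouped by the genotype label. By the study's methods the authors trimmed reads using bbduk, mapped with STAR to mm10 and deposited HTseq counts per Ensembl gene, whereas the submitters' processing notes name Trimmomatic and HISAT2. Strand setting and annotation release were not given in the sources used here. The authors also deposited log2 normalized values, used here for 1 alternative. No column of fold changes was used.

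Symbols came from a GENCODE annotation of mm10 (30934 of 31053 identifiers) and upstream sequences from RefSeq (GRCm38.p6), in which all 10 genes matched. In R 4.3.3, edgeR 4.0.16 was run with filterByExpr defaults, TMM scaling and the quasi-likelihood test on genotype, with Benjamini-Hochberg adjustment over 8930 genes and a threshold of 0.05. The log2 CPM used a prior count of 2. DESeq2 1.42.0, limma 3.58.1, other scalings and filters, a replicate block and leaving out each mouse were alternatives, and the tests were checked on simulated data. At these depths, 3 counts equal 0.963 to 1.49 CPM, a floor for counting error only. Within a genotype, the chi-square between libraries was 4.69 to 23.2 times that of counting noise, so none was treated as a duplicate. Exons of Bnip3 and Dnm1l overlap antisense genes (0 counts in every mouse), and those of Mff and Pink1 overlap genes not analysed here.

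The 10 genes and all lists were chosen with earlier results of these data known. Named genes were the 10, Pnpla2, up to 4 called genes with the smallest adjusted p per direction in each related list, and the 3 genes most like the one with the smallest adjusted p. Mtfr1, called lower beyond that number in its list, and the single markers named were chosen after their values were seen.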

Additional observations from a re-analysis of the deposited data

Results flagged for a closer look

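In 3 of 50 groups of 4 mice examined (the 10 genes, Pnpla2 and the named related genes, per genotype), 1 mouse stood apart by Dixon's criterion at the 95% level, where chance gives about 1 in 20 groups, or 2.5 here. Fundc1 in WT mouse 4 was at 3.91 log2 CPM beside 3.35 to 3.39 in the other WT mice, a gap of 0.929 of the group's range. Afg3l1 in Ucp1Δ/Δ mouse 2 was at 5.65 log2 CPM beside 6.13 to 6.19, a gap of 0.895. Trak2 in Ucp1Δ/Δ mouse 3 was at 5.44 log2 CPM beside 4.98 to 4.997, a gap of 0.967.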

How the results depend on the processing

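Pnpla2 was called in all 18 alternatives, Mfn1 and Dnm1l in 15 each and Bnip3 in 9, always lower. Scaling by total counts alone, which moves the median over all genes tested from -0.0087 to 0.13 (log2FC), left 0 of the 10 genes called by edgeR (4 at an unadjusted p under 0.05) and 1 general mitochondrial protein in place of 2, and split all calls into 404 lower and 1478 higher, beside 681 and 1191. With a floor of 10 counts in each mouse, 1195 genes were called in place of 1872. General mitochondrial proteins called were 4 with at least 1 count in any mouse, 4 by DESeq2's Wald test and 4 at an adjusted p of 0.1. With each mouse left out in turn, 1345 to 2155 genes were called, 1 to 3 of the 10 genes (1 without Ucp1Δ/Δ mouse 2 or 4), 3 to 7 fusion genes (7 without WT mouse 4), 3 to 6 fission genes, 2 to 5 mitophagy genes (5 without WT mouse 4) and 1 to 5 general mitochondrial proteins (4 without WT mouse 1, 5 without WT mouse 4, 1 without Ucp1Δ/Δ mouse 2 or 3). Fundc1 changed sign with total counts (0.13), the floor of 10 counts (0.055) and limma voom (0.038), and ran from -0.097 to 0.13 with a mouse left out. No other of the 10 genes changed sign. Causes were not tested.

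Alternatives chosen after seeing the data were the muscle markers as a covariate, under which 3 of the 10 genes were called, and leaving out both mice with the most muscle markers, which left 1095 genes, 1 of the 10, 2 fusion genes, 3 fission genes and 1 general mitochondrial protein called. The replicate numbers were treated as labels only, and the main test was unpaired. Deviations of same-numbered mice correlated at -0.0873, -0.196, 0.304 and 0.241. So few mixed values cannot tell whether the numbers pair the mice. With the replicate block, 1719 genes and the same 3 of the 10 genes were called, while Afg3l1, Mtfr1, Mtfr1l and Pptc7 were not.

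Of the 10 genes, Oma1 and Fundc1 had the fewest counts, 18 to 40 and 19 to 33 per mouse. The levels are of RNA in whole tissue and say nothing of protein, cleavage or mitochondrial shape.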
